A study of Mus musculus with 40 samples.

Results

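This is the comparison of hippocampal miRNA levels between 6-month-old CamKIIδC TG mice and wild-type control mice. It used 26 of the 40 small RNA libraries of the study, each from the hippocampal CA1 region of 1 mouse, and the mice were assigned by the age and genotype in the sample titles. The TG group held 11 mice, which carry a transgene for the δC form of calcium/calmodulin-dependent protein kinase II and serve as a mouse model of heart failure. The control group held 15 wild-type mice. The group sizes are those of the sample titles, and the paper states another number of TG mice for these libraries. Both groups were 6 months old and on a C57Bl/6J background, the controls were littermates of the transgenic line, and males and females were used, but the sex of each mouse is not in the labels. The promoter that drives the transgene is not given in the sources used here, and its transcript is not measured in small RNA libraries, so the genotype could not be checked from the counts. The question was whether miRNA levels differ between the genotypes at this age and, where no difference was found, how small a change these mice could have shown.

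miRNAs are short RNAs cut from hairpin precursors and loaded into Argonaute proteins, where they lower the stability and translation of mRNAs. An mRNA is recognised mainly by pairing with the seed at the 5′ end of the miRNA, so that miRNAs with the same seed are grouped into families with overlapping targets. In the hippocampus, miR-124, miR-9, miR-128 and the let-7 family are abundant in neurons, and miR-132 and miR-212 are induced by neuronal activity.

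The mature sequences below are those on which the comparison turned, printed 5′ to 3′ with the seed, bases 2 to 8, in capitals. The first pair had low unadjusted p-values, the next 4 had narrow error intervals, and the rest had wide intervals, the highest level or a central place in the study.
miR-3102-3p: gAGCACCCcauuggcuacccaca
miR-410-5p: aGGUUGUCugugaugaguucg
let-7g-5p: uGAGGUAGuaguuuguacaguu
let-7c-5p: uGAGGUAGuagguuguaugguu
let-7e-5p: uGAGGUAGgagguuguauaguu
miR-125b-2-3p: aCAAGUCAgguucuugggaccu
miR-10a-5p: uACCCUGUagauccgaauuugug
miR-10b-5p: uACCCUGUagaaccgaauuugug
miR-34b-5p: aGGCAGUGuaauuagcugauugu
miR-128-3p: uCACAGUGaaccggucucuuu
miR-181a-5p: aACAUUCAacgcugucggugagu

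These sequences and positions are from RefSeq (GRCm38.p6), and 525 of the 612 tested miRNAs (85.8%) were matched there by name. miR-3102-3p lies at chr7:100882307-100882329 on the minus strand, within an exon of Arhgef17 on the same strand. miR-410-5p lies at chr12:109743729-109743749 on the plus strand, within an exon of the long non-coding RNA Mirg. let-7g-5p is encoded in an intron of Wdr82 at chr9:106178846-106178867 and let-7e-5p in an intron of Spaca6 at chr17:17830366-17830387, both on the plus strand. miR-125b-2-3p lies in an intron of Mir99ahg at chr16:77646318-77646339 on the plus strand. let-7c-5p comes from 2 hairpins, at chr15:85706616-85706637 in an exon of Lncppara and at chr16:77599672-77599693 in an intron of Mir99ahg, and reads of the 2 cannot be told apart. The same holds for miR-128-3p, from introns of R3hdm1 (chr1:128202404-128202424) and Arpp21 (chr9:112118644-112118664, minus strand), and for miR-181a-5p, at chr1:137966468-137966490 and chr2:38852741-38852763. miR-10a-5p lies in no other annotated gene, at chr11:96317186-96317208, and miR-10b-5p lies in introns of Hoxd3 and Hoxd4 at chr2:74726074-74726096. miR-34b-5p lies at chr9:51103610-51103632 on the minus strand, opposite an intron of Btg4.

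Total counts per library ranged from 2656368 to 25243920, with a median of 13894826 for TG and 14908612 for control mice, and a read assigned to several precursors is counted in the total for each. The shallowest libraries were those of TG mouse 9 (2656368 counts) and wild-type control mice 5 (2816478) and 4 (4238710). The genotypes differed by less than the spread between mice in log10 total counts (difference 0.0159, two-sided permutation test, adjusted p = 0.894) and in the share of spike-in oligos, which was 0.168% ± 0.0423 in TG (SD, n = 11) and 0.165% ± 0.0346 in wild-type control mice (SD, n = 15; adjusted p = 0.894). The lowest level the depth could show, 3 counts, corresponded to 0.151 to 2.39 CPM across libraries, a floor that covers counting error only because PCR reads are not independent molecules. The neuronal miR-9-5p was abundant in each library, with at least 48455 CPM in TG and 54217 CPM in wild-type control mice. Other neuronal miRNAs were far lower, such as miR-137-3p with 36.8 CPM in TG mouse 9 and 34.0 CPM in wild-type control mouse 2. Of the muscle miRNAs, miR-208a-3p had 0 reads in all 26 libraries and miR-208b-3p 6 reads in 2 of them, while miR-1a-3p had at least 206 CPM and miR-499-5p at least 3 reads in each. Levels are given in CPM, and log2FC is TG over wild-type. CPM are counts relative to the summed counts of the tested miRNAs in a library, scaled with edgeR's TMM factors. That sum holds 1 precursor row per miRNA and no spike-in oligos, so it is smaller than the total counts above.

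Of 612 miRNAs with enough counts for a test, 0 (0%) were called altered in 6-month-old CamKIIδC TG mice relative to wild-type control mice. The call required an adjusted p under 0.05 in edgeR's quasi-likelihood test and an absolute log2FC above 0.26, or 1.2-fold. Adjusted p-values started at 0.992, 3 miRNAs (0.490%) had an unadjusted p under 0.05, and DESeq2 also called 0, with 6 at that unadjusted level. The edgeR share was below the nominal share of such a threshold in the absence of differences, and why was not tested. The log2FC was positive for 290 miRNAs and negative for 322, with a median of -0.01, a middle range of -0.14 to 0.10 between the quartiles and extremes of -0.72 and 0.66. For 0 of the 612 (0%) did the values of all TG mice lie apart from those of all wild-type control mice. The same fit on 41 spike-in oligos called 0 and 0 had an unadjusted p under 0.05 in edgeR. Each value is relative to TMM scaling. Without TMM factors the median over all miRNAs shifted to -0.13 and with spike-in totals to -0.12, so the sign of a log2FC close to 0 depends on the scaling.

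**Figure D1:**
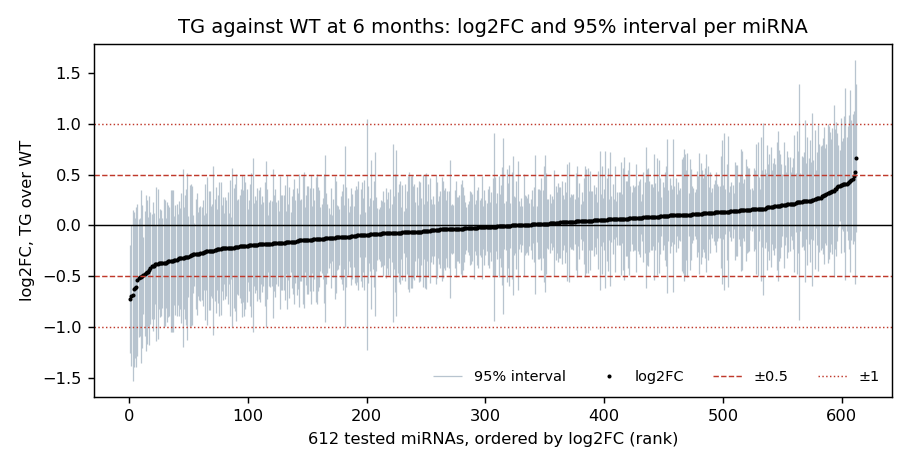
Log2FC of TG over wild-type control mice (y axis, log2 scale) for the 612 tested miRNAs, ordered by log2FC (x axis, rank). Points are edgeR estimates, vertical lines their 95% intervals (11 TG and 15 wild-type control mice), and horizontal lines mark log2FC of 0.5 and 1 in both directions. All intervals but 3 include 0, and 565 of 612 stay within log2FC of 1.

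The absence of calls does not show that levels were equal, so the size of change that remained possible was measured for each miRNA. The measure was the end of its 95% interval farther from 0, called the largest change left. Its median over the 612 miRNAs was 0.57 on the log2 scale, or 1.48-fold, with a range from 0.19 to 1.63 (3.09-fold), and it lay between 0.39 and 0.76 for the middle of the distribution, from the lower to the upper quartile. A doubling or halving lay outside the interval for 565 miRNAs (92.3%), and a log2FC of 0.5, which is 1.41-fold, for 234 (38.2%). The study's own threshold of 0.26 lay outside for 25 (4.08%), so for most miRNAs a change of that size was neither detected nor excluded.

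The same margins were tested with a pair of one-sided tests per miRNA (equivalence test), adjusted over all 612 by the Benjamini-Hochberg method in the edgeR fit. A log2FC as large as 1 was rejected for 588 miRNAs (96.1%), one of 0.5 for 225 (36.8%) and one of 0.26 for 0 (0%). With DESeq2, the last count was 2. At the stricter Bonferroni level the median of the largest change left was 1.13, and 241 miRNAs stayed within 1. Seen from the other side, a miRNA of median precision would have needed an estimated log2FC of 1.00, or 1.99-fold, to pass a Bonferroni threshold over the 612, and the most precise needed 0.36.

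How small a change could be excluded depended on the level of the miRNA. Among 75 miRNAs with a mean above 1000 CPM, the median of the largest change left was 0.39, and 47 had intervals within 0.5. For the 115 miRNAs between 100 and 1000 CPM the median was 0.45, with 64 within 0.5, and for the 167 between 10 and 100 CPM it was 0.47, with 86 within 0.5. Below these levels precision fell. The 238 miRNAs between 1 and 10 CPM had a median of 0.67, with 37 within 0.5, and the 17 under 1 CPM had a median of 0.99, with 0 within 0.5. The median between-mouse SD of log2 CPM in wild-type control mice was 0.49, 0.50 and 0.45 in the 3 ranges above 10 CPM, and 0.71 between 1 and 10 CPM.

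**Figure D2:**
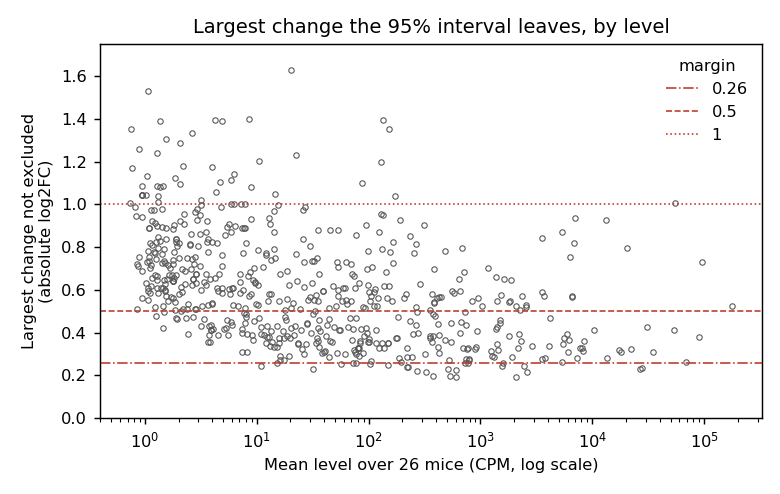
Largest change left by the 95% interval (y axis, absolute log2FC) against the mean level over the 26 mice (x axis, CPM, log scale), 1 point per tested miRNA. Horizontal lines mark 0.26, 0.5 and 1. The points fall with level up to about 10 CPM and then stay scattered, and several abundant miRNAs lie above 0.5.

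The narrowest intervals belonged to 3 let-7 miRNAs, miR-125b-2-3p and miR-30d-5p. let-7g-5p, of a family that represses growth and cell cycle genes, had 24802, 29595 and 31260 CPM as lowest, median and highest value in TG mice. The corresponding control values were 21037, 25891 and 31377 CPM. The ranges overlapped almost entirely, and 7 of 11 TG mice lay above the wild-type mean. The log2FC was 0.08 (standard error 0.08, 95% interval -0.08 to 0.24, adjusted p = 0.992), so that a change above 1.18-fold lay outside the interval. miR-125b-2-3p, the minor strand of a miR-125b hairpin, had a log2FC of 0.04 with an interval of -0.13 to 0.21. For let-7c-5p the interval was -0.13 to 0.23, for let-7e-5p it was -0.11 to 0.24, and for miR-30d-5p it was -0.03 to 0.32.

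The 3 miRNAs with an unadjusted p under 0.05 were present at low levels. miR-3102-3p, encoded within an exon of Arhgef17, had 4.72, 12.2 and 15.4 CPM as lowest, median and highest value in TG mice and 9.38, 15.7 and 28.9 CPM in wild-type control mice. The groups overlapped, but 0 of 11 TG mice lay above the wild-type mean of 16.4 CPM. Its log2FC was -0.49 (standard error 0.19, 95% interval -0.87 to -0.11, unadjusted p = 0.0130, adjusted p = 0.992) and stayed between -0.54 and -0.41 when each mouse was left out in turn. At 3 months of age, in other mice, its log2FC was -0.07 with a standard error of 0.22.

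miR-410-5p, the minor strand of a hairpin in the Mirg cluster, ranged from 1.91 to 5.25 CPM in TG mice around a median of 2.72. Among controls it ranged from 1.33 to 3.26 CPM around a median of 2.35. The log2FC was 0.39 (standard error 0.17, 95% interval 0.04 to 0.74, unadjusted p = 0.0298), and as few as 2 reads supported the value of a mouse. miR-466c-5p had medians of 0.581 CPM in TG and 0.955 CPM in control mice, both below the floor of each of the 3 shallowest libraries (1.47 to 2.39 CPM), and a log2FC of -0.72 (standard error 0.26, 95% interval -1.26 to -0.19, unadjusted p = 0.00875). The lone mouse with 0 reads of it was a wild-type control mouse.

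**Figure D3:**
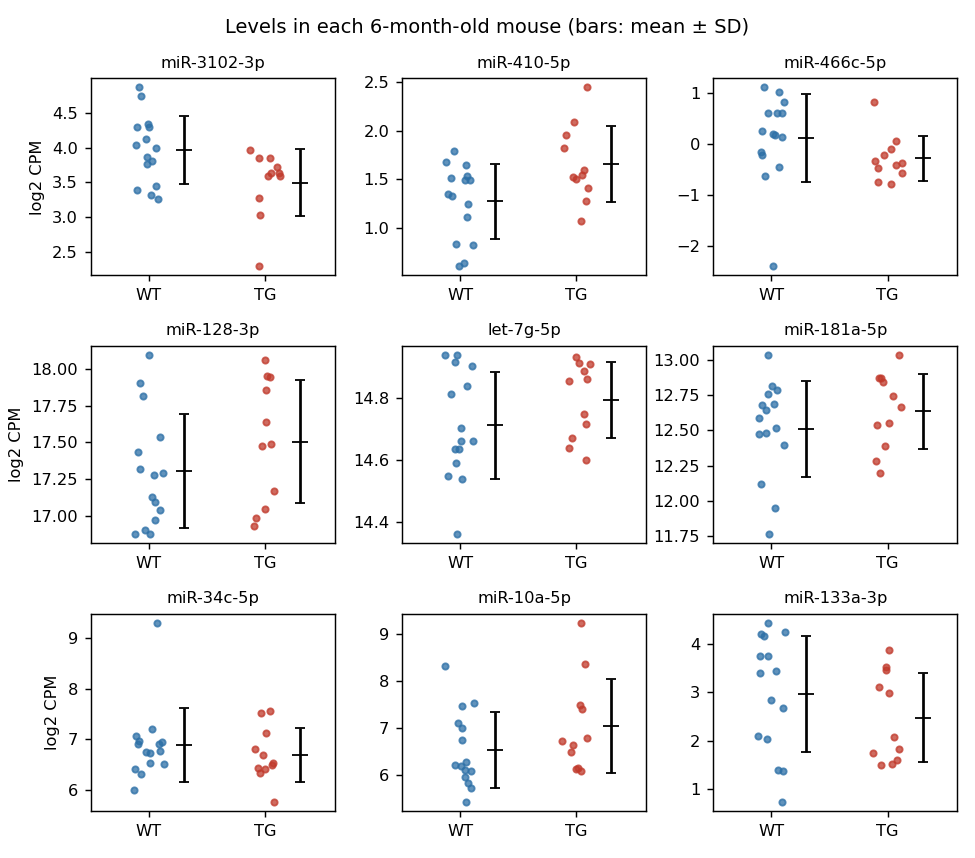
Levels of 9 miRNAs in each 6-month-old mouse (y axis, log2 CPM with its own range per panel), wild-type control mice in blue (n = 15) and TG mice in red (n = 11). Bars are the mean ± SD of each group. The groups overlap in every panel, and single mice stand far above the rest for miR-34c-5p (wild-type) and miR-10a-5p (TG).

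Among miRNAs that averaged 10 CPM or more, the 5 largest increases were those of miR-10a-5p (log2FC 0.66), miR-200a-5p (0.53), miR-200b-3p (0.46), miR-182-5p (0.41) and miR-135a-2-3p (0.32). None of the 5 was called by edgeR, and all 5 intervals included 0. miR-10a-5p, which is encoded in a Hox cluster, had 67.6, 105 and 601 CPM as lowest, median and highest value in TG mice and 42.6, 74.2 and 320 CPM in wild-type control mice. The highest value came from TG mouse 9, the library with the fewest counts, and the log2FC was 0.25 without this mouse but 0.87 without wild-type control mouse 5, also a shallow library. The other 4 also changed when single shallow libraries were left out. Without TG mouse 9 the log2FC was 0.14 for miR-200a-5p, 0.27 for miR-200b-3p, 0.06 for miR-182-5p and 0.13 for miR-135a-2-3p. Without wild-type control mouse 4 it was 0.81, 0.50, 0.80 and 0.48 in the same order. For miR-200b-3p the highest value, 0.58, came without wild-type control mouse 7, whose library was deep (19421528 counts). With all 3 shallowest libraries left out, a fit added after the data were examined, the 5 values were 0.54 for miR-10a-5p and 0.67, 0.29, 0.64 and 0.46 for the others. The part of depth in these values was not tested.

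The 5 largest decreases at that level were miR-34b-3p (log2FC -0.50), miR-3102-3p, miR-34b-5p (-0.37), miR-34c-5p (-0.36) and miR-136-5p (-0.35). The miR-34b/c pair is known from ciliated cells and from the p53 response. miR-34c-5p had 54.2, 92.8 and 190 CPM as lowest, median and highest value in TG mice and 64.1, 108 and 630 CPM in wild-type control mice. A single animal, wild-type control mouse 8, was high for all 3 miR-34 miRNAs. Without it the log2FC of miR-34b-3p was -0.03, that of miR-34b-5p 0.02 and that of miR-34c-5p 0.05. miR-136-5p ranged from 87.7 to 677 CPM in TG and from 146 to 646 CPM in wild-type control mice, and its log2FC stayed between -0.59 and -0.25 when each mouse was left out.

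The widest intervals at this level were those of miR-10b-5p (-1.23 to 1.05), miR-200a-5p (-0.57 to 1.63), miR-182-5p (-0.54 to 1.35), miR-151-3p (-0.94 to 0.91) and miR-148a-3p (-1.01 to 0.78). They include abundant miRNAs. miR-148a-3p had 13133, 46426 and 98601 CPM as lowest, median and highest value in TG mice and 14364, 27437 and 221862 CPM in wild-type control mice. A 2-fold change lay inside the interval in at least 1 direction for 4 of the 5, and just outside it for miR-151-3p.

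The most abundant miRNA was miR-128-3p, which is enriched in neurons, with a mean of 178512 CPM. Its lowest, median and highest values were 125043, 183860 and 273550 CPM in TG and 120156, 158568 and 280042 CPM in wild-type control mice. Both groups covered nearly the same range, and the log2FC was 0.20 with an interval of -0.12 to 0.52, which leaves up to 1.44-fold. Next in level were miR-127-3p (log2FC 0.15, interval -0.44 to 0.73), from the imprinted region of chromosome 12, and miR-99a-5p (0.12, -0.14 to 0.38). For miR-9-5p, a regulator of neurogenesis, the interval of -0.14 to 0.26 left at most 1.2-fold. miR-26a-5p had a log2FC of 0.05 (-0.20 to 0.31). The other members of the 10 most abundant were miR-148a-3p, let-7f-5p (0.04, -0.33 to 0.41), let-7i-5p (0.08, -0.27 to 0.43), let-7g-5p and let-7c-5p.

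The tested miRNAs with a RefSeq sequence were grouped by identical seed, which gave 14 groups of 3 or more with 58 miRNAs. The let-7 seed GAGGUAG was shared by 10 of them, with log2FC from -0.04 to 0.09, and all 10 intervals lay within 0.5, against 38.2% of all tested miRNAs and 47 of the 75 above 1000 CPM. Their sequences differ at few positions, so that a read of one member may have been assigned to another. The 3 miRNAs with the seed CCCUGAG, miR-125a-5p, miR-125b-5p and miR-351-5p, also lay within 0.5. Of the 4 miR-181 miRNAs (seed ACAUUCA) this held for 3, of 4 miR-30 relatives (GUAAACA) for 3 and of 6 miR-15/16 relatives (AGCAGCA) for 1. For the miR-17 relatives (AAAGUGC) it held for 0 of 4, with log2FC from -0.22 to -0.16, and for the miR-200 relatives (AAUACUG) for 0 of 3, with log2FC from -0.40 to 0.46.

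The study named miRNAs of a compensatory network from their decrease between 3 and 6 months in TG mice. It kept those with several annotated targets among transcripts that were low at 3 months and reinstated by 6 months. All 22 that its text names were tested here, and they are no independent sample, since they were chosen on libraries that include these TG mice. None of the 22 was called by edgeR and 0 had an unadjusted p under 0.05. The log2FC was positive for 13 and negative for 9, with a median of 0.04 beside -0.01 for all tested miRNAs. The interval lay within 0.5 for 17 of the 22, against 38.2% of all tested miRNAs, and within 1 for all 22. Most of the 22 were above 100 CPM, and the 38.2% includes many miRNAs of lower level. Of all tested miRNAs, 47 of 75 above 1000 CPM and 64 of 115 between 100 and 1000 CPM lay within 0.5.

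miR-181a-5p, the miRNA at the centre of that network, had 4701, 6502 and 8385 CPM as lowest, median and highest value in TG mice. The corresponding control values were 3479, 6153 and 8384 CPM, so that the 2 highest values nearly coincided. The log2FC was 0.11 (standard error 0.12, interval -0.14 to 0.36), and changes above 1.29-fold lay outside the interval. miR-181b-5p had a log2FC of 0.04 (-0.16 to 0.24) and miR-181d-5p of 0.14 (-0.06 to 0.33). The largest change left among the 22 was that of miR-136-5p, with an interval from -0.91 to 0.20. miR-23a-3p, from -0.71 to 0.36, and miR-153-3p, from -0.69 to 0.37, came next. miR-29b-3p, of a family that targets collagen and DNA methyltransferase mRNAs, had an interval from -0.65 to 0.52.

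Lists of miRNAs known from single cell types or states showed 0 calls and 0 unadjusted p-values under 0.05 in edgeR, beside 0% and 0.490% of all tested miRNAs, which says nothing particular about the lists. The counts within 0.5 are to be read against 38.2% of all tested miRNAs and against the shares by level given above. The neuronal list held 11 miRNAs with a median log2FC of -0.06 and intervals within 0.5 for 2. miR-124-3p, the most neuron-specific of them, had 1207, 2056 and 4090 CPM as lowest, median and highest value in TG and 1109, 2852 and 4352 CPM in wild-type control mice. The ranges overlapped and the log2FC was -0.06 (-0.52 to 0.39). Of the 5 activity-linked miRNAs, 3 lay within 0.5. miR-132-3p had a log2FC of 0.02 (-0.23 to 0.26), and its partner strand miR-132-5p had -0.23 (-0.58 to 0.13).

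Among miRNAs of immune cells and inflammation, 5 of 8 intervals lay within 0.5. The log2FC of the 8 ran from -0.35 to 0.16 with a median of 0.01, and was negative for 3 of them. miR-146b-5p had a log2FC of 0.16 (-0.03 to 0.35), miR-146a-5p of 0.14 (-0.12 to 0.40) and miR-21a-5p of 0.01 (-0.20 to 0.22). miR-155-5p was low, at a median of 2.36 CPM in TG and 2.43 CPM in wild-type control mice, and had a log2FC of -0.02 (-0.39 to 0.35). The oligodendrocyte list had a median of -0.11 over 4 miRNAs, with miR-219a-2-3p at -0.11 (-0.41 to 0.19). The blood-derived miR-451a ranged from 211 to 423 CPM in TG and from 210 to 469 CPM in wild-type control mice, with a log2FC of -0.05 (-0.30 to 0.21). The endothelial miR-126a-3p had a log2FC of 0.16 (-0.03 to 0.36), and the vascular list a median of -0.06 over 5.

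Muscle miRNAs are released into blood by injured heart muscle. Of 7 listed, 5 were tested, with a median log2FC of -0.23 and intervals within 0.5 for 2. miR-1a-3p had a log2FC of -0.03 (-0.44 to 0.38), miR-133a-3p of -0.63 (-1.40 to 0.14), miR-206-3p of 0.03 (-0.36 to 0.42) and miR-499-5p of -0.23 (-0.63 to 0.17). The hypoxia-induced miR-210-3p had a log2FC of 0.14 (-0.15 to 0.43) and the liver-specific miR-122-5p of -0.03 (-0.36 to 0.30). Least precise were the miRNAs of choroid plexus, epithelial and ciliated cells, where 2 of 8 intervals lay within 0.5 and the median of the largest change left was 0.86. Of these, miR-204-5p had a log2FC of -0.04 (-0.32 to 0.24).

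Most of the spread among the mice lay along an axis on which the genotypes overlapped. The first principal component of log2 CPM held 56.1% of the variance, the second 7.25% and the third 6.64%. On the first, TG and wild-type control mice differed by -2.49, less than the spread between mice (two-sided permutation test, p = 0.610, adjusted p = 0.876 over 3 components). Its negative side held 6 TG and 6 wild-type control mice and its positive side 5 and 9. Median totals were 12701300 counts on the negative and 17896400 on the positive side, and the 3 shallowest libraries scored lowest. Totals of the sides overlapped, at 2656370 to 24254300 counts on the negative and 8726690 to 25243900 on the positive side. Their TMM factors did not overlap, at 0.604 to 0.981 on the negative and 1.06 to 1.27 on the positive side. What sets this axis was not tested. Between-mouse SDs of log2 CPM were larger in the TG group for 163 of 612 miRNAs (26.6%), with medians of 0.50 in TG and 0.58 in control mice. These miRNAs are not separate observations, since the first component alone held 56.1% of the variance. Its scores also spread more among controls (SD 13.5, n = 15) than among TG mice (SD 10.7, n = 11). The lowest scores, -26.4 and -24.8, were those of the shallow libraries of wild-type control mice 5 and 4. The part of this axis in the SDs was not tested.

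**Figure D4:**
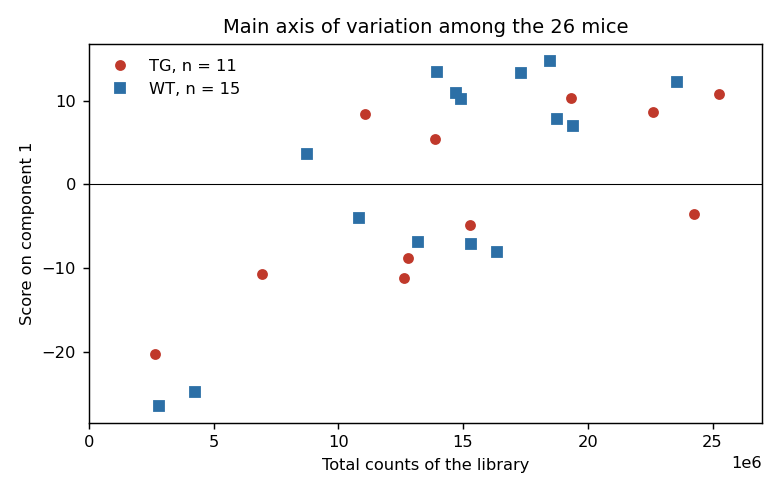
Score of each 6-month-old mouse on the first principal component of log2 CPM (y axis) against the total counts of its library (x axis), TG mice as red circles (n = 11) and wild-type control mice as blue squares (n = 15). Both genotypes lie on both sides of 0, and the 3 shallowest libraries have the lowest scores, from -26.4 to -20.2.

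When 1 RUVs factor entered the model, the limits became tighter. Its weights came from differences between mice of the same group, and its scores from levels of the same tested miRNAs. A genotype difference can enter such scores, so the tighter limits hold only given the factor. The scores were lowest in wild-type control mouse 5 (-0.765) and highest in wild-type control mouse 10 (-0.0713), as were those on the first component (-26.4 and 14.7). The edgeR fit with this factor was added after the data were examined. It called 0 miRNAs, with 14 at an unadjusted p under 0.05, and the median of the largest change left went from 0.57 to 0.35, or 1.28-fold. Intervals within 0.5 rose from 234 to 445 (72.7%) and intervals within 0.26 from 25 to 150 (24.5%). For miR-151-3p the interval narrowed to -0.12 to 0.14, for miR-148a-3p to -0.28 to 0.34 and for miR-124-3p to -0.10 to 0.22. For miR-3102-3p it remained -0.78 to -0.13. Against that 72.7% for 0.5, 20 of the 22 network miRNAs lay within it, and so did 10 of the 11 neuronal and 4 of the 4 miR-17 seed miRNAs. Of all tested miRNAs it held, with this factor, for 75 of the 75 above 1000 CPM and 107 of the 115 between 100 and 1000 CPM. The choroid plexus, epithelial and ciliated list stayed at 2 of 8 and the miR-200 seed at 0 of 3.

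**Figure D5:**
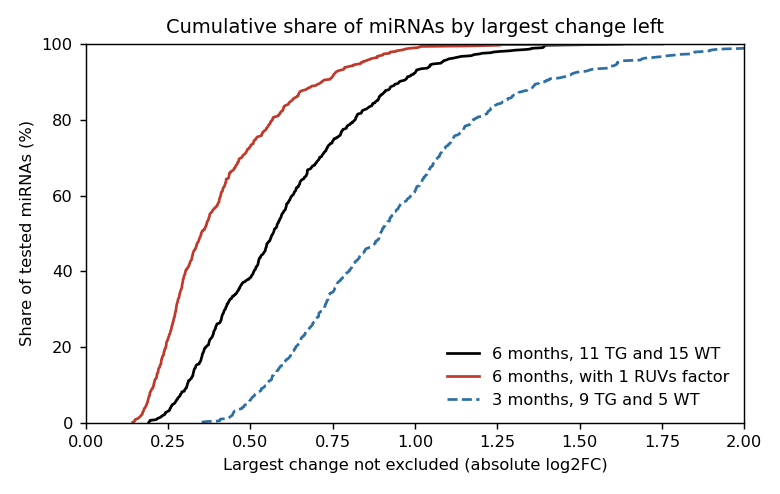
Cumulative share of tested miRNAs (y axis, percent) whose largest change left is at most the value on the x axis (absolute log2FC). Lines show 6 months without a factor (black), 6 months with 1 RUVs factor (red) and 3 months with 9 TG and 5 wild-type control mice (dashed blue). At 0.5 the lines stand at 38.2%, 72.7% and 5.88%.

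Of the settings run, those with factors estimated from the residuals of the fit (RUVr) in DESeq2 gave calls. An unadjusted p under 0.05 was reached there by 75 miRNAs (12.3%) with 1 factor and 85 (13.9%) with 2, against 6 in DESeq2 without a factor. Factors taken from the residuals of the same miRNAs lower the standard errors by their making. The median standard error was 0.128 with 1 and 0.126 with 2, against 0.217 without. With 1 such factor 3 miRNAs were called by DESeq2 (Benjamini-Hochberg adjusted p = 0.0250 each), namely miR-133a-3p (log2FC -0.56), miR-150-5p (-0.35) and miR-5099 (0.29). With 2 factors miR-379-5p was added (0.27, adjusted p = 0.00765). In edgeR without a factor their log2FC was -0.63 (interval -1.40 to 0.14), -0.35 (-0.78 to 0.09), 0.24 (-0.56 to 1.04) and 0.20 (-0.42 to 0.82), in the same order, and 0 had an unadjusted p under 0.05. With the RUVs factor in edgeR the intervals were -0.59 to 0.02, -0.41 to -0.04, -0.04 to 0.31 and 0.02 to 0.30, again with 0 of the 4 called. In edgeR without a factor, miR-5099 went from 0.03 without TG mouse 9 to 0.48 without wild-type control mouse 5, and miR-379-5p from 0.05 without TG mouse 9 to 0.38 without wild-type control mouse 4. miR-150-5p, a miRNA of mature lymphocytes, had 53.6, 69.5 and 136 CPM as lowest, median and highest value in TG and 46.1, 124 and 164 CPM in wild-type control mice. The groups overlapped, and 3 of 11 TG mice lay above the wild-type mean. miR-133a-3p, of heart and skeletal muscle, had medians of 4.04 CPM in TG and 10.4 CPM in wild-type control mice with overlapping ranges. TG mice on the negative side of the first component had 2.62 to 4.04 CPM and those on the positive side 7.69 to 14.4 CPM. The negative side held 6 of 11 TG and 6 of 15 wild-type control mice. The part of this axis in the medians of both miRNAs was not tested.

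The same comparison at 3 months of age, with 9 TG and 5 wild-type control mice, was less precise. There 695 miRNAs were tested and 0 (0%) called by edgeR, with 7 at an unadjusted p under 0.05. Over the 612 miRNAs tested at both ages the median of the largest change left was 0.90 at 3 months and 0.57 at 6 months. Intervals lay within 0.5 for 36 miRNAs at 3 months and 234 at 6 months, and within 1 for 374 and 565. The interaction of age and genotype, tested over all 40 mice, was called for 0 of 699 miRNAs (0%), with 14 at an unadjusted p under 0.05, and its interval lay within 1 for 304. For the others, a 2-fold change of the genotype effect with age lay inside the interval. For miR-181a-5p the interaction was -0.09 with a standard error of 0.23.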

How the data were processed

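Small RNA was sequenced from the CA1 region of 40 mice, and the 26 libraries of 6-month-old mice were used, with the 14 of 3-month-old mice for comparison. The authors converted reads with bcl2fastq (version 2.20.2), checked them with FastQC (version 0.11.5), trimmed adapters with cutadapt (version 2.8 per the labels), aligned them to mm10 with mirdeep2 and annotated miRBase miRNAs. They deposited a raw count for each of 2128 pairs of mature miRNA and precursor, and the same values as RPM, which were checked to be the counts divided by library totals and rescaled (largest difference 0.005). The totals include 52 spike-in entries, which were left out of the miRNA tests.

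For each of 1978 mature miRNAs the precursor row of highest total was kept, since counts of 41 of the 85 with several precursors were identical on each. The groups were fitted with edgeR (version 4.0.16, R 4.3.3): filterByExpr (minimum count 10, minimum total 15), TMM scaling, robust dispersions and quasi-likelihood F tests, adjusted by the Benjamini-Hochberg method. The study named DESeq2 with RUVSeq but no kind or number of factors. RUVr and RUVs factors were computed here from their published definitions, with DESeq2 (version 1.42.0) or edgeR. Intervals of 95% came from the Wald standard error with the posterior quasi-dispersion. Other alternatives were upper-quartile factors, unscaled totals, other filters, summed precursors, a joint fit of 4 groups and each mouse left out. A further alternative was limma (version 3.58.1) on log2 RPM with a pseudocount of 1, which understates changes of low miRNAs, or of 0.1. Fits with spike-in totals, without shallow libraries and with an RUVs factor in edgeR were added after the data were examined. Permutation tests used scipy (version 1.17.1) with 100000 resamples. Tests were tried on simulated counts.

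Depth was 2656368 to 25243920 counts. No library was a copy of another. The labels give 1 mouse per library, so p-values measure the spread between mice. Same-numbered mice of the 2 groups do not come from the same animal, and the replicate number was not treated as a pairing. Titles gave the genotype, also for controls 1 and 2 of the younger age, where another field says TG.

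The miRNAs named are those with an unadjusted p under 0.05, the 5 largest increases and 5 largest decreases at 10 CPM or more, the 10 most abundant, the 5 narrowest and 5 widest intervals, members of 12 lists and miRNAs called under another setting that calls few. The comparison, the lists and this rule were chosen with earlier results of these data known. Positions within genes are from the GENCODE annotation of GRCm38.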

Additional observations from a re-analysis of the deposited data

How the results depend on the processing

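The count of called miRNAs was 0 under the alternatives run, other than DESeq2 with 1 (3 called) or 2 (4 called) RUVr factors, and 0 in each of 26 fits that left out 1 mouse. Intervals within 0.26 (25 miRNAs) numbered 44 with DESeq2, 130 with 1 and 130 with 2 RUVr factors, 179 with a DESeq2 and 150 with an edgeR RUVs factor, 15 with upper-quartile factors, 2 with no low-count filter, 9 in the joint fit and 5 with spike-in totals. Intervals within 0.5 (234) numbered 430, 433, 456 and 445 with these RUVr and RUVs factors and 143 with spike-in totals. Equivalence at 0.26 (0) was passed by 2 with DESeq2, 60 and 57 with RUVr and 113 with RUVs in DESeq2. At 0.5 (225) it was passed by 455, 457, 483 and 473 with these factors, 73 with no filter, 361 with limma and a pseudocount of 1, and 87 with spike-in totals. With only the 362 miRNAs of at least 10 CPM, 347 intervals lay within 1 and 356 passed equivalence there, fewer because fewer were tested. The median largest change left (0.57) was 0.37 with 1 and 0.37 with 2 RUVr factors, 0.34 and 0.35 with RUVs in DESeq2 and edgeR, and 1.12 with no filter, where 1598 miRNAs were fitted. The cause of the other shifts was not tested. With 1 mouse left out, intervals within 0.26 numbered 16 to 27 (16 without TG mouse 2 and 16 without TG mouse 10), within 0.5 218 to 261 and within 1 537 to 573, equivalence at 0.5 187 to 236 and at 1 570 to 593, and the median largest change left was 0.55 to 0.62. Without the 3 shallow libraries 0 of 619 were called in edgeR, 11 at an unadjusted p under 0.05.

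The mean correlation of the deviations of same-numbered mice was 0.315 over 11 pairs (-0.613 to 0.708), 9 of them over 0.1, and -0.037 for other numbers. Own numbers correlated best for 1 TG and 2 wild-type control mice, a hint from the data only. With the replicate block 0 miRNAs were called in edgeR, 7 had an unadjusted p under 0.05, and 4 intervals lay within 0.26 and 273 within 0.5.

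Precision was lowest for miRNAs under 10 CPM, whose levels lie closest to the floor of 3 counts.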

Other observations

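The cluster of miRNAs in Mirg on chromosome 12, maternally expressed and processed from one long transcript, was represented by 24 tested miRNAs. Of these, 12 had a positive and 12 a negative log2FC, with a median of 0.00, and 0 were called or had an unadjusted p under 0.05 in edgeR. Members of the cluster differed in precision. miR-411-5p had 1711, 2077 and 2312 CPM as lowest, median and highest value in TG and 1537, 2129 and 2376 CPM in wild-type control mice, and its interval of -0.17 to 0.19 was among the tightest of all. miR-369-3p ranged from 14.7 to 226 CPM in TG and from 15.7 to 321 CPM in wild-type control mice, with an interval of -1.20 to 0.56. Intervals lay within 0.5 for 10 of the 24, close to the 38.2% of all tested miRNAs, and for 21 with 1 RUVs factor in edgeR, where the share of all was 72.7%, a fit added after the data were examined.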
